A study of Homo sapiens with 6 samples.

Results

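The genes described are 43 lysosome and autophagy genes, taken by symbol from a table of 58735 genes measured by RNA-seq in Huh7 cells, a line established from a human liver cancer. The list holds 3 transcription factors, 3 genes for lysosomal membrane proteins, 13 for hydrolases and their activator precursor, 9 for the proton pump and 15 for the autophagy machinery. The tested libraries carried a short hairpin RNA against ITGB5, the integrin beta 5 subunit (shITGB5, 3 libraries), and were set against libraries with a control hairpin (shcontrol, 3 libraries). Cells of both groups grew in RPMI-1640 with fetal bovine serum. Which columns of the table belong to which group was read from their codes, S with a number for the ITGB5 hairpin and NC with a number for the control. No drug treatment is named in the labels, and neither the number of hairpins or clones per group nor the separateness of the cultures is given in the sources used here, so p-values cover only the spread among these libraries and that spread may be technical.

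Lysosomes break down cargo with hydrolases that work in acid, and the vacuolar ATPase pumps in the protons that keep the lumen acidic. TFEB, TFE3 and MITF are related transcription factors that bind short E-box words in the promoters of many of these genes, and the kinase complex mTORC1, which sits on the lysosomal surface when nutrients are plentiful, holds them in the cytoplasm. Autophagy delivers cytoplasmic cargo to the lysosome: the ULK1 kinase complex starts it, a lipid kinase complex built around BECN1 marks the membrane, WIPI proteins read that mark, and enzymes such as ATG7 attach LC3 and GABARAP proteins to the growing membrane. In liver this route clears damaged mitochondria, lipid droplets and protein aggregates.

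The libraries held 16563911 to 18011313 counts with the ITGB5 hairpin and 15777922 to 17476580 counts in the controls. ITGB5 itself had 173, 181 and 174 CPM (counts scaled to library size, with the trimmed mean of M values, TMM) with the hairpin, against 205, 214 and 217 CPM in the controls. That was 16.8% lower (log2 change -0.27, SE 0.032, edgeR quasi-likelihood test, Benjamini-Hochberg adjusted p = 2.13e-09), while an exact two-sided permutation test, which cannot go below 0.1 with 3 libraries a group, returned p = 0.1. All 3 hairpin libraries were below the controls, and most of the transcript remained. Hepatocyte and hepatoma markers were high in every library, with a summed level of 12253 to 12378 CPM with the ITGB5 hairpin and 11434 to 11568 CPM in the controls. Macrophages are rich in lysosomes, so blood and immune markers were read beside the members. Their sum was 41.9 to 44.0 CPM with the ITGB5 hairpin and 38.4 to 39.1 CPM in the controls, most of it from CD14, and TYROBP had no count in any library. PTPRC had at most 4 counts in a library and CD3E at most 1, while LYZ had 102 to 124. Fibroblast and stellate markers summed to 324 to 333 CPM against 289.5 to 303 CPM, mostly LUM and COL1A2. Endothelial markers summed to 4.29 to 5.85 CPM against 3.90 to 6.14 CPM. Most of that was PECAM1, with 62 to 93 counts in a library, while KDR was at 0 throughout. Of the fibroblast and stellate markers, DCN had at most 4 counts in a library and THY1 at most 1, while COL1A1 had 294 to 321. Mitochondrial transcripts took 3.24% to 3.29% of counts with the ITGB5 hairpin and 3.47% to 3.54% in the controls. The part of these shifts in the results below was not tested. In bulk RNA of a cell line, fewer cells with a transcript and less of it per cell cannot be told apart.

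All 43 members passed the filter on low counts and were tested. Of these, 5 were higher with the ITGB5 hairpin, 5 were lower and 33 did not pass (edgeR, Benjamini-Hochberg adjusted over all 16577 genes tested, threshold 0.05). That is 23.3% of the members, beside 15.1% of all genes tested and 20.7% of the 11504 genes with a mean of at least 5 CPM, a level that every member reached. By direction, 8.31% of all genes tested were higher and 6.74% lower. The share of members called was thus close to that of genes of at least that abundance. Libraries of both groups did not overlap for 18 members (41.9%), beside 28.5% of all genes tested and 31.9% of the protein-coding genes tested. This share was not worked out for genes of at least 5 CPM, so the gap was not matched for abundance. The median log2 change of the members was -0.03, and 34 of the 43 changed by less than 10%. By role, 6 of 15 autophagy genes passed, 1 of 13 hydrolase genes, 1 of 9 proton pump genes, 1 of 3 membrane genes and 1 of 3 transcription factors, and the difference between these counts was not tested.

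Levels per length placed the members over a range from 1.48 FPKM (TFEB) to 386 FPKM (PSAP), where FPKM is the scaled CPM per kilobase of the gene length in the deposited table, averaged over the 6 libraries. PSAP, the precursor of the saposins that help hydrolases reach lipids, was far above CTSZ at 86.1 FPKM, SQSTM1 at 72.7 FPKM, GABARAPL1 at 70.7 FPKM, CTSD at 66.8 FPKM and LAMP2 at 65.1 FPKM. HEXA, a subunit of beta-hexosaminidase, was the lowest hydrolase per length at 2.68 FPKM, with a deposited gene length of 12611 bases. In CPM NAGLU was lower, at a mean of 26.1 CPM with the ITGB5 hairpin and 26.8 CPM in the controls. HEXA had 32.3 and 35.4 CPM. Among autophagy genes the lowest per length were UVRAG at 3.36 FPKM and ATG7 at 3.57 FPKM. GABARAP at 4.48 FPKM, ATG9A, CTSD and HEXA share 617 to 1833 exon bases with another gene on the same strand that holds under 1% of their counts. How the counting treated reads in shared exons is not given in the sources used here, so these levels are uncertain.

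**Figure D1:**
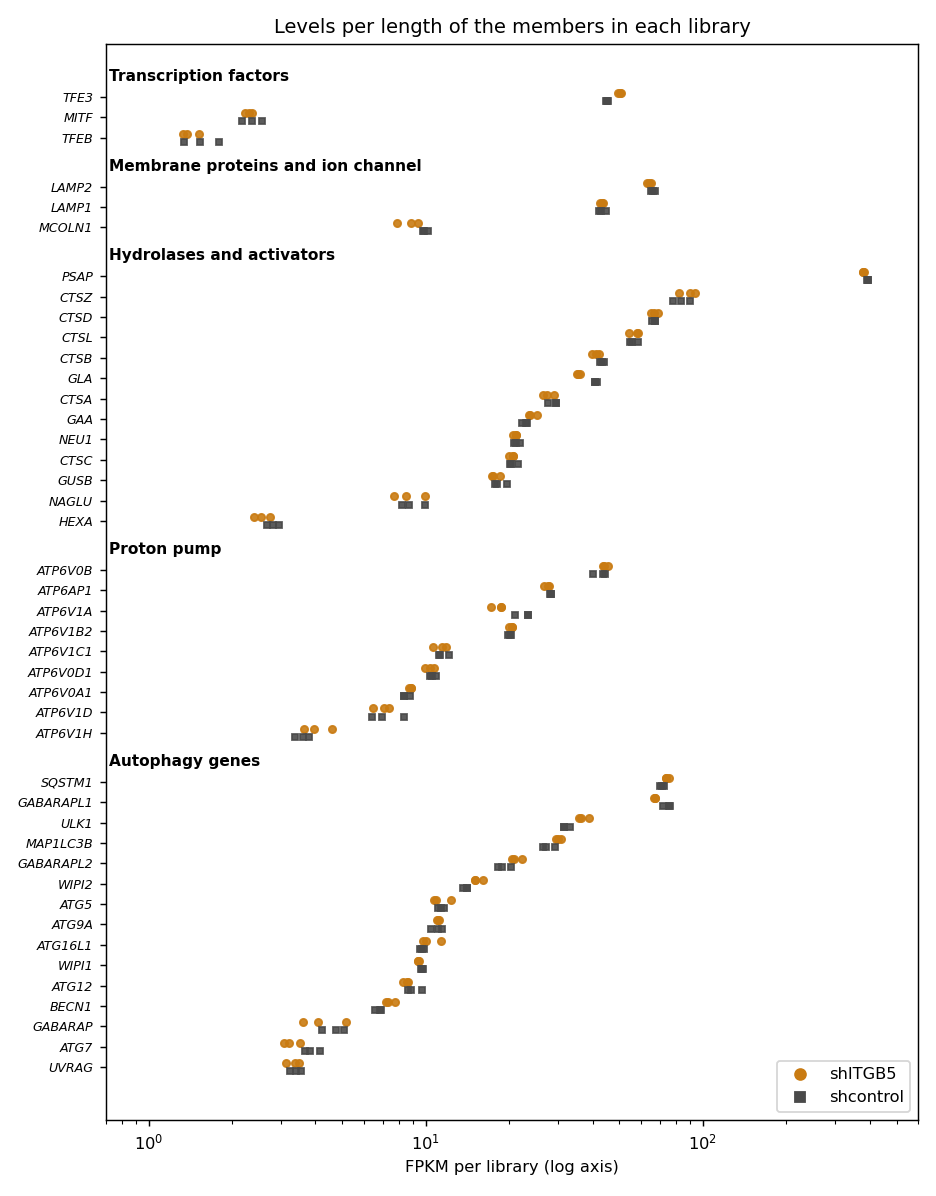
FPKM of each member in each library on a log axis, grouped by role, with circles for the 3 shITGB5 libraries and squares for the 3 shcontrol libraries. PSAP lies at about 386 FPKM and TFE3 at 47.6 FPKM, while TFEB and MITF lie at 1.48 and 2.33 FPKM, and the groups lie close together for most genes.

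Of the transcription factors, TFE3 was both the most abundant and the only member that passed. TFE3 (ENSG00000068323, chromosome X, 49028726 to 49043486, minus strand, GRCh38) had 215, 217 and 212 CPM with the ITGB5 hairpin, against 193, 195 and 192 CPM in the controls. Every ITGB5 hairpin library was above every control, at 215 CPM ± 2.74 and 193 CPM ± 1.63 (SD, n = 3 each). The rise was 11.2% (log2 change 0.15, SE 0.031, edgeR adjusted p = 0.000132), and it passed in all 14 fits that were run. TFEB had 7.80, 7.50 and 8.58 CPM with the ITGB5 hairpin, against 10.1, 8.65 and 7.60 CPM in the controls. MITF had 17.0, 16.0 and 16.5 CPM, against 15.7, 16.9 and 18.5 CPM. The groups overlapped for both genes. Neither passed (edgeR adjusted p = 0.549 for TFEB and 0.846 for MITF), and for TFEB the 95% interval reached from 24.8% lower to 8.48% higher.

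The E-box words that these factors are known to bind were looked for in the members' promoters, to show which of the genes carry them. RefSeq promoter sequences (build GRCh38.p14, 250 bases before to 50 after the start) matched 33 of the 43 members, all but LAMP2, CTSB, HEXA, NAGLU, PSAP, ATP6V1A, ATP6V1B2, ATP6V1C1, ATP6V1H and UVRAG. The core CACGTG, the longer TCACGTGA and the longest GTCACGTGAC were searched; each is its own reverse complement, so a match counts for both strands, and each longer word contains the shorter. The core was in 8 of the 33 promoters (24.2%), beside 10.0% of 11143 promoters of genes tested and 7.26% of 35116 RefSeq promoters. TCACGTGA was in 5 (15.2%, beside 1.85% of the promoters of genes tested) and GTCACGTGAC in 2 (6.06%, beside 0.763%). All 8 were genes of the lysosome itself, and 0 of 14 autophagy promoters held the core in this window. The 5 promoters with TCACGTGA are given here, read along the gene's strand, 1 site each, with the core in capitals:
MCOLN1, chr19:7522601-7522624, plus strand: ctaccgggtCACGTGaccgaggca
GAA, chr17:80101541-80101564, plus strand: cccgccggtCACGTGacccgcctc
LAMP1, chr13:113297202-113297225, plus strand: ccgcgggatCACGTGacgcccggg
CTSA, chr20:45891301-45891324, plus strand: gccggagttCACGTGactcgtaca
ATP6V0D1, chr16:67481202-67481225, minus strand: ccttatggtCACGTGaggcgcttg
Of these 5 genes, MCOLN1 was lower with the ITGB5 hairpin and the other 4 did not pass. None of the 5 members that were higher held the core in this window, beside 10.6% of the 1078 promoters of all genes called higher. That number of members is too small to read against this share, and all but TFE3 were autophagy genes. The matches describe letters only, and no binding was measured.

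Of the lysosomal membrane genes, LAMP1 and LAMP2, which encode the most abundant glycoproteins of the lysosomal membrane, differed little. LAMP1 had 244, 251 and 249 CPM with the ITGB5 hairpin, against 246, 257 and 242 CPM in the controls, with a 95% interval from -4.01% to 4.24%. LAMP2 had 361, 349 and 353 CPM, against 359, 365 and 372 CPM, from 6.63% lower to 0.529% higher. The groups overlapped for both. MCOLN1 (ENSG00000090674, chromosome 19, 7522626 to 7534009), the calcium channel TRPML1 of the lysosomal membrane, had 31.2, 37.2 and 34.9 CPM with the ITGB5 hairpin, against 39.0, 38.6 and 40.1 CPM in the controls. All 3 hairpin libraries were below the controls, with the wider spread among the hairpin libraries. MCOLN1 was 12.4% lower (log2 change -0.19, SE 0.066, edgeR adjusted p = 0.0403). This call was lost when any single library except shITGB5 replicate 2 was left out (edgeR adjusted p = 0.284 and 0.0762 without shITGB5 replicates 1 and 3, and 0.0785, 0.0593 and 0.126 without shcontrol replicates 1, 2 and 3). It was also lost in DESeq2 (adjusted p = 0.111) and with no filter on low counts (edgeR adjusted p = 0.0757). MCOLN1 shares 6 exon bases with same-strand PNPLA6, which had 512% of its counts and did not pass.

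Among the 13 genes for hydrolases and PSAP, 12 did not pass and 1, GLA, was lower. GLA (ENSG00000102393, chromosome X, 101397803 to 101408012, minus strand) encodes alpha-galactosidase A, the enzyme missing in Fabry disease. It had 80.8, 81.8 and 79.9 CPM with the ITGB5 hairpin, against 93.2, 93.2 and 94.5 CPM in the controls. The spread within each group was small beside the gap between the groups, at 80.8 CPM ± 0.966 and 93.6 CPM ± 0.748 (SD, n = 3 each). That was 13.6% lower (log2 change -0.21, SE 0.042, edgeR adjusted p = 0.000131), and GLA passed in all 14 fits.

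The other 12 ranged from 8.83% lower (HEXA) to 5.99% higher (GAA, acid alpha-glucosidase), and 9 of the 13 had a negative log2 change, with a median of -0.04. For 11 of these 12 the 95% interval lay within 1.2-fold in either direction, HEXA being the exception with a lower bound of 17.1%. PSAP had 1241, 1226 and 1221 CPM with the ITGB5 hairpin, against 1273, 1279.6 and 1267 CPM in the controls. Its groups did not overlap, but the difference of 3.43% did not pass (edgeR adjusted p = 0.0881). It passed in DESeq2 (adjusted p = 0.0483) and when only genes of at least 5 CPM were tested (edgeR adjusted p = 0.0375). CTSB, cathepsin B, was at 296, 314 and 306 CPM, against 326, 316 and 322 CPM (edgeR adjusted p = 0.0576), again without overlap. CTSB passed, as lower, with library totals only, when only genes of at least 5 CPM were tested and without shITGB5 replicate 2. CTSZ, cathepsin Z, the most abundant cathepsin per length, had 166, 192 and 183 CPM with the ITGB5 hairpin, against 170.3, 158 and 183 CPM in the controls. Its groups overlapped (edgeR adjusted p = 0.193), although it passed without shITGB5 replicate 1 (edgeR adjusted p = 0.0178) or shcontrol replicate 3 (0.0362). For the cathepsin genes CTSD, CTSL and CTSC and the sialidase gene NEU1, the difference was at most 1.39% in size and the groups overlapped. Summed over the 13 genes, the level was 2864 to 2928 CPM with the ITGB5 hairpin and 2942 to 2975 CPM in the controls, and PSAP made up the largest part of both sums.

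**Figure D2:**
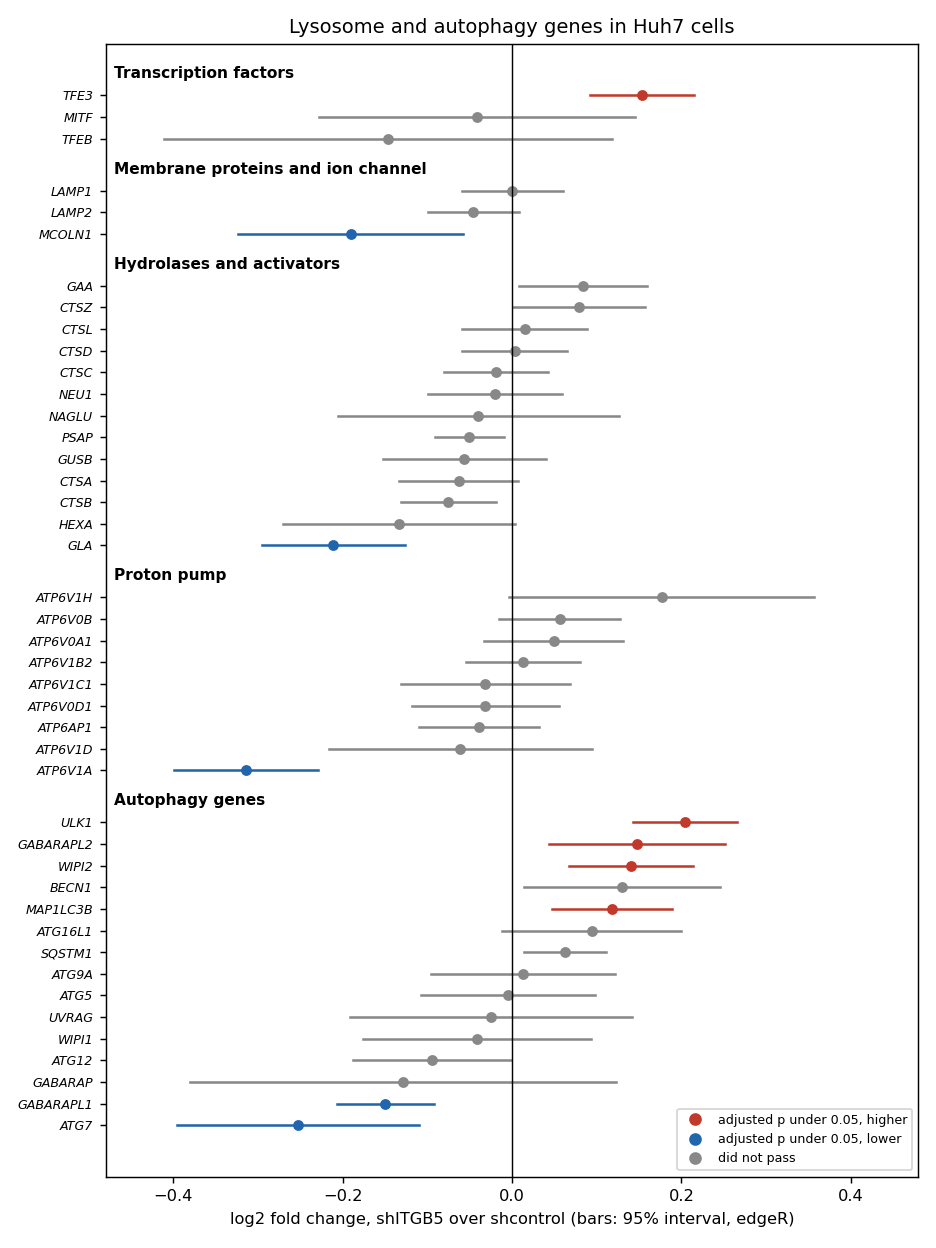
Log2 fold change of shITGB5 over shcontrol for all 43 members by role, with 95% intervals from the edgeR fit. The 5 higher members are 4 autophagy genes and TFE3, and the 5 lower members are spread over the membrane, hydrolase, proton pump and autophagy groups.

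In the proton pump, which couples a cytoplasmic ATP-splitting sector (V1) to a membrane sector (V0), ATP6V1A fell and the other 8 genes did not pass. ATP6V1A (ENSG00000114573, chromosome 3, 113747019 to 113812056, plus strand) encodes the catalytic A subunit of V1. It had 95.5, 87.9 and 95.7 CPM with the ITGB5 hairpin, against 108, 120.0 and 119.8 CPM in the controls. The highest hairpin library was below the lowest control. ATP6V1A was 19.6% lower, the largest change of any member in percent (log2 change -0.31, SE 0.043, edgeR adjusted p = 4.32e-08), and it passed in all 14 fits.

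Subunits A and B alternate in the V1 ring. ATP6V1B2, the gene of the B subunit, had 160.3, 156 and 159.6 CPM with the ITGB5 hairpin, against 158, 159 and 154 CPM in the controls, with a 95% interval from -3.69% to 5.71%. The ratio of ATP6V1A to ATP6V1B2 in FPKM was 0.908, 0.861 and 0.914 with the ITGB5 hairpin, against 1.04, 1.15 and 1.18 in the controls, so the ratio was lower in every hairpin library than in every control. Whether it lies above or below 1 depends on the gene lengths in the table, since in CPM ATP6V1A was below ATP6V1B2 in all 6 libraries. Of the remaining 7, the V0 genes ATP6V0A1, ATP6V0B and ATP6V0D1, the V1 genes ATP6V1C1, ATP6V1D and ATP6V1H and the accessory gene ATP6AP1 ranged from -4.15% (ATP6V1D) to 13.0% (ATP6V1H, edgeR adjusted p = 0.211). ATP6V1H was the least abundant pump gene, at 23.3, 18.5 and 20.1 CPM against 18.3, 17.2 and 19.3 CPM, and its interval reached from 0.275% lower to 28.1% higher. ATP6V1D shares exon bases with opposite-strand EIF2S1, which had 243% of its counts.

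Of the 15 autophagy genes, 4 were higher, 2 were lower and 9 did not pass, with a median log2 change of 0.01. The early steps held 2 of the rises. ULK1 (ENSG00000177169, chromosome 12, 131894651 to 131923167, plus strand), the kinase that starts autophagy, had 277, 295 and 272 CPM with the ITGB5 hairpin, against 240.1, 239.5 and 253 CPM in the controls. All hairpin libraries were above all controls. ULK1 rose by 15.2%, to 281 CPM ± 12.3 against 244 CPM ± 7.35 (SD, n = 3 each), with a log2 change of 0.20 (SE 0.031, edgeR adjusted p = 5.2e-07), and passed in all 14 fits. WIPI2, which binds the marked membrane and recruits ATG16L1, had 135, 135 and 144 CPM with the ITGB5 hairpin, against 127, 123 and 126 CPM in the controls, again without overlap. It rose by 10.2% (log2 change 0.14, SE 0.037, edgeR adjusted p = 0.00398), a call lost without shITGB5 replicate 3 (0.0779). WIPI1, a relative of WIPI2, was at 32.0, 32.2 and 31.8 CPM against 32.7, 33.2 and 33.0 CPM. Its difference of 2.84% did not pass (edgeR adjusted p = 0.770), although the groups did not overlap.

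**Figure D3:**
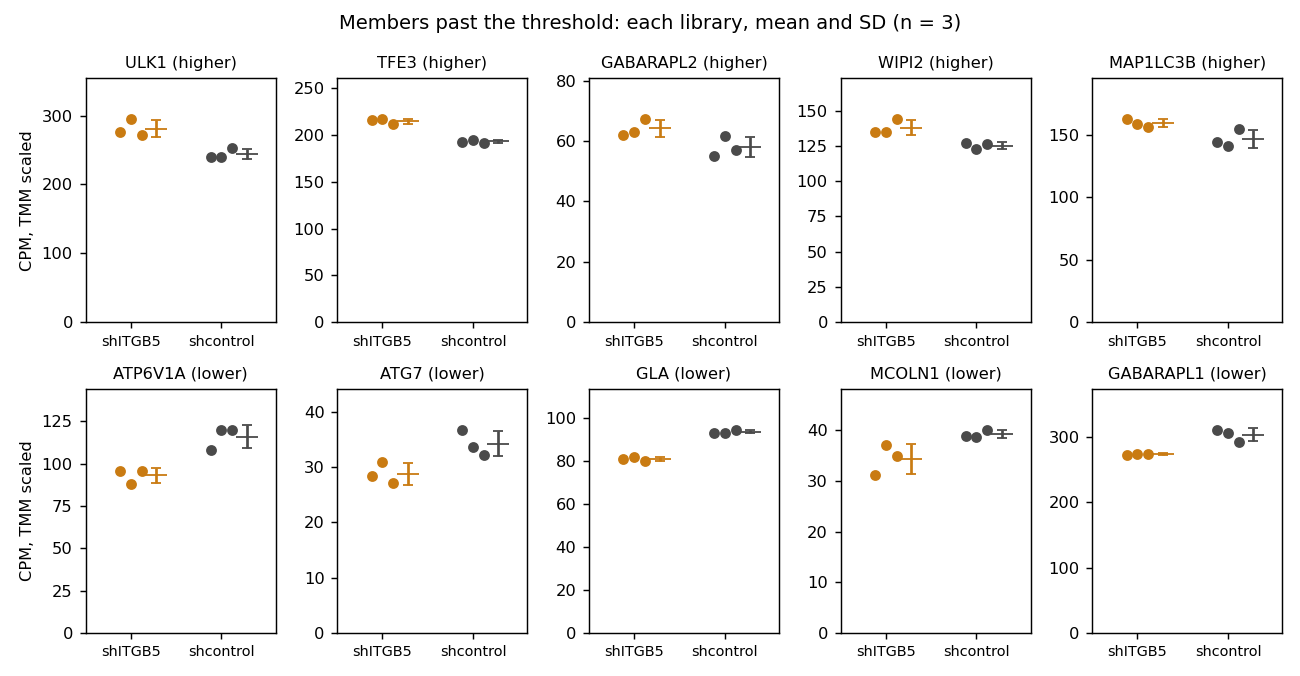
CPM of the 10 members past the threshold in each library, with shITGB5 left of shcontrol, the mean as a dash and the SD as a bar (n = 3). In all 10 the groups do not overlap, beside 28.5% of all genes tested. The 10 were picked by a test on these same libraries, so this is no separate evidence. Differences are small beside the level, at most 19.6% for ATP6V1A.

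BECN1, the scaffold of the lipid kinase complex, had 46.1, 46.8 and 49.6 CPM with the ITGB5 hairpin, against 43.9, 44.2 and 42.1 CPM in the controls. The groups were apart, but the 9.42% difference did not pass (edgeR adjusted p = 0.134), and BECN1 shares exon bases with opposite-strand PSME3, which had 320% of its counts. UVRAG, a partner of BECN1, and ATG9A, the membrane protein of the vesicles that seed the autophagosome, differed by 1.72% and 0.921% and did not pass.

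The members that help attach LC3 and GABARAP proteins did not move as a group. ATG7 (ENSG00000197548, chromosome 3, 11272309 to 11557665, plus strand), the activating enzyme for both conjugation systems, had 28.3, 31.0 and 27.2 CPM with the ITGB5 hairpin, against 36.8, 33.8 and 32.3 CPM in the controls. The groups did not overlap. ATG7 fell by 16.1% (log2 change -0.25, SE 0.071, edgeR adjusted p = 0.00865), a call lost without shITGB5 replicate 3 (0.0818) or shcontrol replicate 1 (0.1). ATG7 shares 1596 exon bases with opposite-strand VGLL4, which had 120% of its counts. VGLL4 had 39.6 CPM with the ITGB5 hairpin and 35.8 CPM in the controls (edgeR adjusted p = 0.136), and without the strand setting of the counting the reads of both genes cannot be told apart. ATG5, ATG12 and ATG16L1, which together form the complex that places LC3 on membranes, differed by -0.311%, -6.33% and 6.73%, and none passed (edgeR adjusted p = 0.972, 0.189 and 0.269). ATG12 shares 378 exon bases with opposite-strand AP3S1, which had 66.8% of its counts and did not pass.

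Of the LC3 and GABARAP genes, whose products coat the autophagosome, MAP1LC3B and GABARAPL2 rose, GABARAPL1 fell and GABARAP did not pass. MAP1LC3B, the gene of LC3B, had 163, 159 and 156 CPM with the ITGB5 hairpin, against 145, 141 and 155 CPM in the controls, and rose by 8.55% (log2 change 0.12, edgeR adjusted p = 0.0140). Its lowest hairpin library was just above its highest control. GABARAPL2 had 62.1, 63.1 and 67.3 CPM, against 55.2, 61.6 and 57.1 CPM, and rose by 10.8% (log2 change 0.15, edgeR adjusted p = 0.0425). Both calls were fragile. MAP1LC3B missed the threshold without shITGB5 replicate 1 (edgeR adjusted p = 0.0888) or shcontrol replicate 1 or 2 (0.0833 and 0.155), and in DESeq2 (0.0522). GABARAPL2 missed it without shITGB5 replicate 3 (edgeR adjusted p = 0.249) or shcontrol replicate 1 or 3 (0.254 and 0.137), in DESeq2 (0.129) and with the replicate block (edgeR adjusted p = 0.0522). MAP1LC3B shares 150 exon bases with opposite-strand FBXO31, which had 28.2% of its counts.

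GABARAPL1 (ENSG00000139112, chromosome 12, 10212458 to 10223130, plus strand), the most abundant gene of the family, had 273, 275 and 275 CPM with the ITGB5 hairpin, against 312, 307 and 293 CPM in the controls. The hairpin libraries were nearly equal and all lay below the controls. GABARAPL1 fell by 9.85% (log2 change -0.15, SE 0.028, edgeR adjusted p = 6.13e-05) and passed in all 14 fits. Summed over the family, with MAP1LC3A and MAP1LC3B2 included and MAP1LC3C at 0 in every library, the level was 128 to 128.4 FPKM with the ITGB5 hairpin and 129.6 to 132 FPKM in the controls. GABARAPL1 made up 52.3% ± 0.057 of that sum with the ITGB5 hairpin and 56.8% ± 1.43 in the controls (SD, n = 3 each). MAP1LC3B made up 23.4% ± 0.548 against 21.1% ± 1.23, and GABARAPL2 16.5% ± 0.669 against 14.6% ± 0.755. GABARAP had 8.19, 11.7 and 9.26 CPM with the ITGB5 hairpin, against 9.57, 11.5 and 10.8 CPM in the controls, and the groups overlapped (edgeR adjusted p = 0.587). MAP1LC3A and MAP1LC3B2 did not pass either (edgeR adjusted p = 0.936 and 0.195). MAP1LC3B2 is a near-identical copy of MAP1LC3B, so reads could be split between them.

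**Figure D4:**
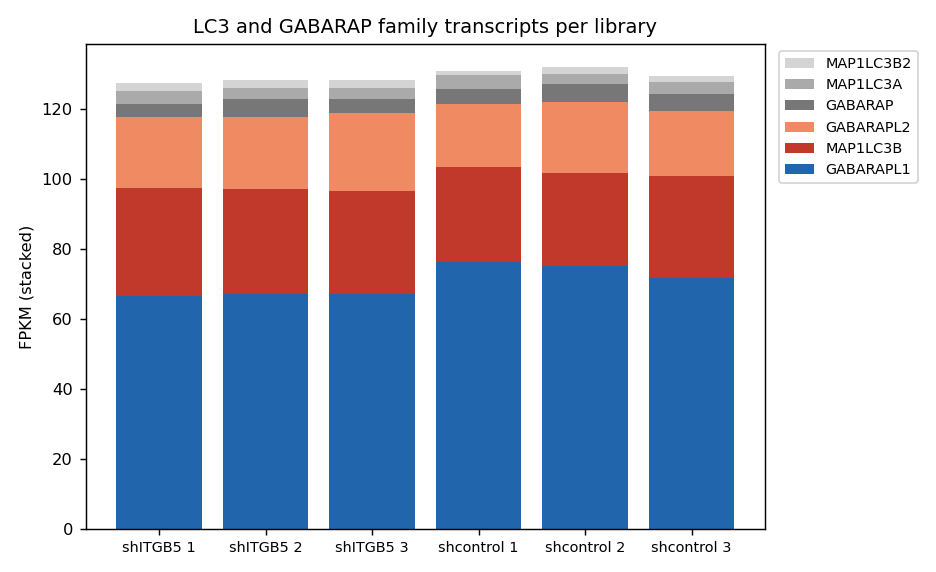
FPKM of the LC3 and GABARAP genes stacked for each library, with the 3 shITGB5 libraries left of the 3 shcontrol libraries. The total is 127.6 to 132 FPKM in all 6 libraries, while the GABARAPL1 part is smaller and the MAP1LC3B and GABARAPL2 parts are larger with the ITGB5 hairpin.

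SQSTM1 encodes p62, the receptor that carries ubiquitin-marked cargo and is itself degraded by autophagy. It was the most abundant autophagy gene, at 563, 580.1 and 564 CPM with the ITGB5 hairpin, against 553, 537 and 544 CPM in the controls. The groups did not overlap, but the difference of 4.42% did not pass (edgeR adjusted p = 0.0710, 95% interval from 0.995% to 7.97% higher). SQSTM1 shares 105 exon bases with opposite-strand MGAT4B, which had 53.7% of its counts and did not pass.

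Among the 33 members that did not pass, 7 had an unadjusted edgeR p under 0.05: CTSB, CTSZ, GAA, PSAP, SQSTM1, BECN1 and ATG12. For 29 of the 33 the 95% interval lay within 1.2-fold in either direction. The 4 with wider intervals were TFEB, HEXA, ATP6V1H and GABARAP.

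The members that fell were also looked at for 7-base words in the 3′ untranslated region (UTR) of the principal GENCODE 29 transcript. The words AGACCAA and GACCAAA, shifted forms of each other, had been picked in an earlier analysis of these same counts because genes that fell often hold them, so the shares are a description and no independent evidence. Of all 13241 genes tested with a UTR, 15.8% held either word, beside 34.8% of the 1034 lower genes and 10.6% of the 1321 higher genes. Among the members, 3 of the 5 lower, 0 of the 5 higher and 4 of the 33 others (MITF, CTSB, ATP6AP1 and ATG12) held either word. A longer UTR has more places for any word, and none of these shares was matched for UTR length. The UTRs of ATP6V1A, ATG7 and GABARAPL1 have 2629, 2822 and 1278 bases. Those of the higher members run from 512 (GABARAPL2) to 1806 bases (ULK1). The sites in the lower members are shown along the transcript with the word in capitals:
ATP6V1A, chromosome 3: gaaagtttGACCAAAtttgtttt
GABARAPL1, chromosome 12: tacctgggGACCAAAagagaccc
ATG7, chromosome 3, first site: cccaacacAGACCAAatggggaa
ATG7, chromosome 3, further site: cgctcattGACCAAAaaggagca
GLA and MCOLN1, the other lower members, held neither word, and the UTR of GLA is 6 bases long, shorter than the words. TCGGAGA and CGGAGAA, picked in the same way among genes that rose, were in 3.35% of all genes tested and 9.08% of higher genes. They were in 0 of the 5 higher members, a number too small to read against that share, and in the UTR of GAA, which did not pass. The part of these words in the changes was not tested.

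The other genes of the pathway, 168 in 7 lists, were counted in the same way. Of the 160 that were tested, 11 were higher, 12 lower and 137 did not pass, with a median log2 change of -0.01. That is 14.4% called, beside 15.1% of all genes tested and 20.7% of genes with a mean of at least 5 CPM. Not every gene of these lists reached that level, so the shares were not matched for abundance. Differences between the lists in the share called were not tested. Of the 23 called, 9 passed in all 14 fits: LAPTM4A, TMEM192, IGF2R, SORT1, VMP1, BNIP3L, CALCOCO1, AKT1S1 and SESN2.

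Of 39 other hydrolase genes, 1 rose and 1 fell (5.13% called, beside 15.1% of all genes tested, median log2 change -0.02). The protease gene CTSH rose (log2 change 0.21, edgeR adjusted p = 0.0139), and IDS, iduronate sulfatase, fell (-0.17, 0.0193). CTSH missed the threshold without shITGB5 replicate 3 (edgeR adjusted p = 0.0794), shcontrol replicate 2 (0.0565) or shcontrol replicate 3 (0.0902), and IDS without the same libraries (0.0554, 0.082 and 0.0778). Of 13 other proton pump genes tested, 2 fell (15.4% called) and 11 did not pass, with a median of -0.06. DMXL1, a subunit of a complex that helps assemble the pump, fell to 39.3 CPM ± 2.61 with the ITGB5 hairpin, against 47.8 CPM ± 5.32 in the controls (log2 change -0.28, edgeR adjusted p = 0.00103, and 0.0674 without shcontrol replicate 2). The V0 gene ATP6V0E1 fell by 0.11 on the log2 scale (edgeR adjusted p = 0.0190), a call lost without shITGB5 replicate 1 or 2 (0.057 and 0.0724) or shcontrol replicate 1 or 3 (0.0664 and 0.0732).

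Of 21 other lysosomal membrane genes tested, 4 rose and 1 fell (23.8% called, beside 15.1% of all genes tested, median 0.03). TMEM192 rose to 40.5 CPM ± 0.609, against 32.8 CPM ± 0.652 in the controls (log2 change 0.30, edgeR adjusted p = 0.000317), and LAPTM4A to 264 CPM ± 4.77, against 243 CPM ± 5.59 (0.12, 0.00252). NPC1, which exports cholesterol from the lysosome, and the chloride exchanger CLCN7 also passed (0.13 and 0.12, edgeR adjusted p = 0.0276 and 0.0290). NPC1 was lost without shITGB5 replicate 1 or 2 (0.103 and 0.11) or shcontrol replicate 1 or 2 (0.0591 and 0.181). CLCN7 was lost without any library except shITGB5 replicate 2 (edgeR adjusted p of 0.0532 to 0.112). NPC1 overlaps RMC1, whose counts equalled 33.1% of its own. SCARB2, the membrane receptor LIMP-2, was the gene that fell (-0.11, edgeR adjusted p = 0.00962), a call lost without replicate 2 of shITGB5 (0.0765) or of shcontrol (0.0672).

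Of 13 genes that sort hydrolases to the lysosome, 1 rose and 2 fell (23.1% called, beside 15.1% of all genes tested, median -0.02). IGF2R, the large receptor for the phosphomannose tag, rose to 419 CPM ± 5.85 with the ITGB5 hairpin, against 379 CPM ± 6.83 in the controls (log2 change 0.15, edgeR adjusted p = 1.86e-05). SORT1, sortilin, fell to 124 CPM ± 4.63, against 139 CPM ± 5.03 (-0.17, edgeR adjusted p = 0.000487), and the adaptor gene AP1G1 fell by 0.15 on the log2 scale (edgeR adjusted p = 0.00101, and 0.0537 without shcontrol replicate 2).

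Of 30 other autophagy machinery genes tested, 2 rose and 1 fell (10% called, beside 15.1% of all genes tested, median -0.01). Of 14 autophagy receptor genes 1 rose and 4 fell (35.7% called, median -0.06). VMP1, a membrane protein needed for autophagosome formation, rose to 202 CPM ± 5.66, against 177 CPM ± 4.11 in the controls (log2 change 0.20, edgeR adjusted p = 4.34e-06). ULK2, a relative of ULK1, rose to 11.1 CPM ± 0.324, against 8.44 CPM ± 0.961 (log2 change 0.40, edgeR adjusted p = 0.0157), a call lost without shITGB5 replicate 2 (0.0584) or shcontrol replicate 1 or 2 (0.0508 and 0.118). RB1CC1, a partner of ULK1 in the starting complex, fell by 0.19 on the log2 scale (edgeR adjusted p = 0.0112, and 0.168 without shcontrol replicate 1). Among the receptors, CALCOCO1 fell to 44.4 CPM ± 2.68, against 53.3 CPM ± 1.95 (log2 change -0.26, edgeR adjusted p = 0.00042), and the mitophagy receptor BNIP3L fell to 72.6 CPM ± 2.84, against 82.3 CPM ± 1.24 (-0.18, 0.00264). BNIP3L overlaps PNMA2, which also fell and whose counts equalled 64.1% of its own. RETREG1, a receptor for the endoplasmic reticulum, fell at a low level, to 3.97 CPM ± 0.584 against 5.90 CPM ± 1.23 (log2 change -0.57, edgeR adjusted p = 0.0183). It was lost without shITGB5 replicate 3 (0.118) or shcontrol replicate 2 or 3 (0.194 and 0.0531), and NBR1 (-0.13, edgeR adjusted p = 0.0142) without shITGB5 replicate 2 (0.0999) or shcontrol replicate 3 (0.18). TAX1BP1 was the receptor gene that rose (0.09, edgeR adjusted p = 0.0333), and it was lost without shITGB5 replicate 1 (0.24) or any control library (0.0594 to 0.179), and with the replicate block (edgeR adjusted p = 0.0534).

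Of 30 tested genes of mTORC1 and nutrient sensing at the lysosome, 2 rose, 1 fell and 27 did not pass (median 0.03). That is 10% called, beside 15.1% of all genes tested. SESN2, a stress-induced inhibitor of mTORC1, rose to 69.1 CPM ± 1.39, against 58.2 CPM ± 2.64 (log2 change 0.25, edgeR adjusted p = 0.000126). AKT1S1, a subunit that restrains mTORC1, rose to 193.3 CPM ± 5.88, against 172 CPM ± 5.45 (0.17, edgeR adjusted p = 9.4e-05). AKT1S1 overlaps TBC1D17, which also rose and whose counts equalled 33.9% of its own. RHEB, the GTPase that activates mTORC1, fell by 0.13 on the log2 scale (edgeR adjusted p = 0.0321), and missed the threshold without shITGB5 replicate 1 or 2 (0.0806 and 0.153) or shcontrol replicate 3 (0.281). With no filter on low counts RHEB and ATP6V0E1 were not called (edgeR adjusted p = 0.056 and 0.0533). DESeq2 did not call IDS, NPC1, CLCN7, ULK2, RETREG1, NBR1, TAX1BP1 or RHEB (adjusted p of 0.0542 to 0.103).

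**Figure D5:**
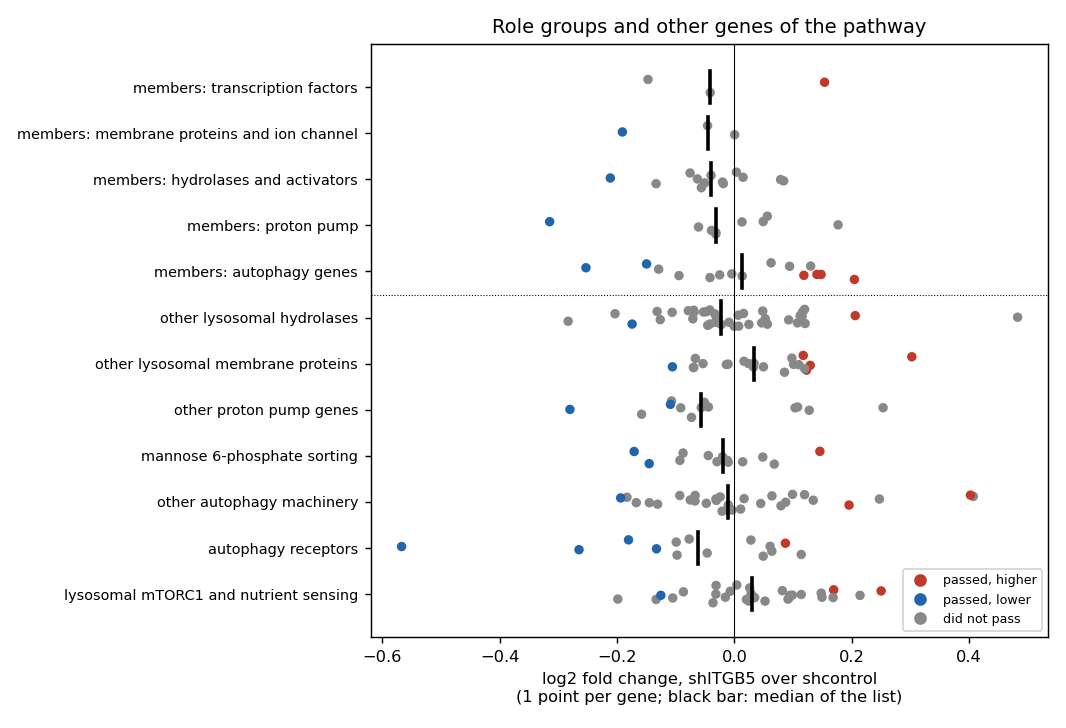
Log2 fold change of shITGB5 over shcontrol for each tested gene of the member groups (above the dotted line) and of the 7 other pathway lists, with the list's median as a black bar. Medians lie between -0.06 and 0.03, and among the autophagy members and in 6 of the 7 other lists genes passed in both directions.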

How the data were processed

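Per the labels' protocols, total RNA went into strand-specific (directional) RNA-seq libraries. The authors deposited 1 table of 58735 genes with a count per library, an Ensembl ID and a gene length. The table is named for FPKM, but 100% of its library values are whole numbers with totals that differ between libraries, so they were taken as raw counts. How reads were aligned and counted, and whether counting used strand, is not given in the sources used here. Gene positions matched the GENCODE 29 annotation (GRCh38).

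Genes were kept with filterByExpr (16577 tested), scaled by TMM and tested with the quasi-likelihood test of edgeR 4.0.16 in R 4.3.3, adjusted by Benjamini-Hochberg over all genes tested with a threshold of 0.05. FPKM was computed here as scaled CPM per kilobase of the deposited length. The script was tested on simulated data. Alternatives were DESeq2 1.42.0, limma-trend (limma 3.58.1), other scalings, other filters, a replicate block and leaving out each library, 14 fits in all with the one reported.

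The members, gene lists and tests were chosen with earlier results of these data known. Genes were named if they were members past the threshold, a transcription factor or among the 2 most abundant per length of a role, or among the 4 largest changes past the threshold in a list. Other named genes were chosen after their values were seen.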

Additional observations from a re-analysis of the deposited data

How the results depend on the processing

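Over all genes, the number called was 2495, and 1760 with DESeq2, 2477 with limma-trend, 2219 with no filter on low counts and 1939 to 2183 when 1 library was left out. Members called higher were 3 with DESeq2 and 3 to 5 when 1 library was left out, and members called lower 3 to 6, with 3 of each without shITGB5 replicate 3 or without shcontrol replicate 1. The cause was not tested. The ITGB5 change stayed between -0.29 and -0.25 in those fits. LAMP1, close to 0, changed sign with DESeq2 and with RLE factors (-0.0008 in both), with library totals only (-0.0029) and with genes of at least 5 CPM (-0.0032), and lay between -0.02 and 0.025 when 1 library was left out. MITF lay between -0.1002 and 0.0196. For the 19 named members under 13 alternatives, 215 of 247 values kept direction and call, 19 lost the call, 4 gained it and 9 changed sign. The named members include some that were not called, for which staying uncalled counts as kept. Of the 10 members called, 5 passed in all 14 fits.

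Same-numbered libraries of both groups did not deviate together over the genes tested (correlations of 0.028, -0.000125 and -0.0174). No pairing by number was seen, but these correlations cannot exclude a weak one. With the replicate block 2303 genes were called, 4 members higher and 5 lower. The hairpin and control libraries had similar depth, and intervals were widest for members with few counts such as TFEB and GABARAP.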
